A study of Mus musculus with 28 samples.

Results

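Genes of extracellular nucleotide and adenosine signalling, 10 of 55487 genes in the files, were followed through 28 macrophage libraries. The 10 genes were chosen by name as members of the extracellular ATP, NAD and adenosine pathway, and their level in these libraries played no part in the choice rule. They encode the ATP-gated channels P2rx7 and P2rx4, the nucleotide-sensing P2ry2 and P2ry6, the surface enzymes Cd38, Entpd1 and Nt5e, the adenosine receptors Adora2a and Adora2b, and the adenosine-degrading enzyme Ada. All 10 passed the filter on low values.

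ATP and NAD that leave damaged or dying cells are danger signals, and P2X channels and P2Y receptors on macrophages read ATP and related nucleotides such as UDP. Surface enzymes take ATP and NAD apart in steps: Entpd1 (CD39) removes phosphates from ATP and ADP, Nt5e (CD73) turns AMP into adenosine, and Cd38 consumes NAD. Adenosine acts on receptors such as Adora2a and Adora2b, which dampen inflammatory output of macrophages, until Ada converts it to inosine.

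The cells were wild-type mouse bone marrow derived macrophages (macrophages grown in culture from marrow), kept for 48 h, with 4 libraries in each of 7 groups. M0 cells received no polarizing cytokine. The other 6 groups were exposed to IFN-γ or to IL-10 at 50 ng/mL and, within each cytokine, were sorted as having taken up apoptotic Treg cells (regulatory T cells), as having taken up apoptotic Tconv cells (conventional CD4 T cells), or as non-phagocytic. The T cells had been killed with ATP/NAD and carried a fluorescent anti-CD4 antibody, so ATP, an agonist of several of the receptors described here, had been used to prepare them. The series text lists a non-polarizing co-culture, but labels of the M0 libraries mention neither T cells nor uptake, so a difference from M0 holds the cytokine together with any co-culture and sorting, and these cannot be told apart. Phagocytic libraries are named by the antibody dye (BV421 or Ax647) and number in their titles. The dye in the library name was the other one in 8 of 8 Treg-phagocytic libraries and the same in the Tconv-phagocytic ones. Nothing in the labels says that replicates came from separate animals or cultures, so p-values measure only the spread between these libraries.

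Macrophage markers were abundant in every library, at a summed 19584 to 24566 TPM (a gene's share of the RNA, corrected for length) over 13 genes. The 6 IFN-γ response genes summed to 209 to 752 TPM in the IFN-γ groups and 84.5 to 132 TPM in the others, with the IFN-γ Treg-phagocytic libraries lowest among the IFN-γ groups at 209 to 298 TPM. The 5 IL-10 response genes summed to 541 to 728 TPM under IL-10 and 123 to 172 TPM elsewhere. T cell markers were above 0 in every group: the sum over 19 genes was 65.8 to 178 TPM in M0, 573 to 1101 TPM under IFN-γ and 101 to 260 TPM under IL-10. Relative depth, read from the steps between low values, was 11.1% to 24.2% of the deepest library under IFN-γ, 48.9% to 91.9% under IL-10 and 68.7% to 100% in M0, so low levels are least precise under IFN-γ. A single read on a 2000-nt RNA was worth 0.15 to 0.328 TPM under IFN-γ and 0.0364 to 0.0744 TPM in the other libraries.

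In the GENCODE vM21 annotation of GRCm38, both channel genes lie in the same orientation on chromosome 5, P2rx7 at chr5:122643911-122691432 and P2rx4 at chr5:122707544-122729738, with 16111 bases between them. The bases before each start are shown because these neighbours gave different calls with IL-10 against M0, though not with IFN-γ against M0. Neither the difference between the genes nor any part of the sequence in it was tested. The windows are RefSeq promoters of build GRCm38.p6, cut where the annotated exon begins: P2rx7 from chr5:122643677-122643910 on the plus strand and P2rx4 from chr5:122707294-122707543 on the plus strand.
P2rx7: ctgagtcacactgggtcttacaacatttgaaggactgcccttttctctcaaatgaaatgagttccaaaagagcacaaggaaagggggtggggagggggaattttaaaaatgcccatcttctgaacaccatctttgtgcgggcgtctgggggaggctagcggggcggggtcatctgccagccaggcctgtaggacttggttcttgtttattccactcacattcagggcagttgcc
P2rx4: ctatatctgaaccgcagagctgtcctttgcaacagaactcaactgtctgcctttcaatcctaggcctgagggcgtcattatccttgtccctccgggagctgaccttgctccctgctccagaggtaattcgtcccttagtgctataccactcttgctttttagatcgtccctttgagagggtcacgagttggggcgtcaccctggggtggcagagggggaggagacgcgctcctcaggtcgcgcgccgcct
Of the 10 genes, 8 had a RefSeq window, P2ry6 and Adora2a being the others, and P2rx7 had another at chr5:122650133-122650382 that is not shown.

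P2rx4 was the most abundant in every group, with group means of 240 to 377 TPM, and P2ry6 (58.2 to 166 TPM) and Entpd1 (67.3 to 141 TPM) came next. By group mean Entpd1 was above P2ry6 in M0 and the 3 IFN-γ groups and below it in the 3 IL-10 groups. P2rx7 (26.1 to 43.1 TPM) and P2ry2 (9.50 to 21.5 TPM) were intermediate. Nt5e, Adora2a, Adora2b, Cd38 and Ada were lower, with group means of 0.185 to 5.68 TPM. TPM is corrected for RNA length, which allows these levels to be set beside each other.

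**Figure D1:**
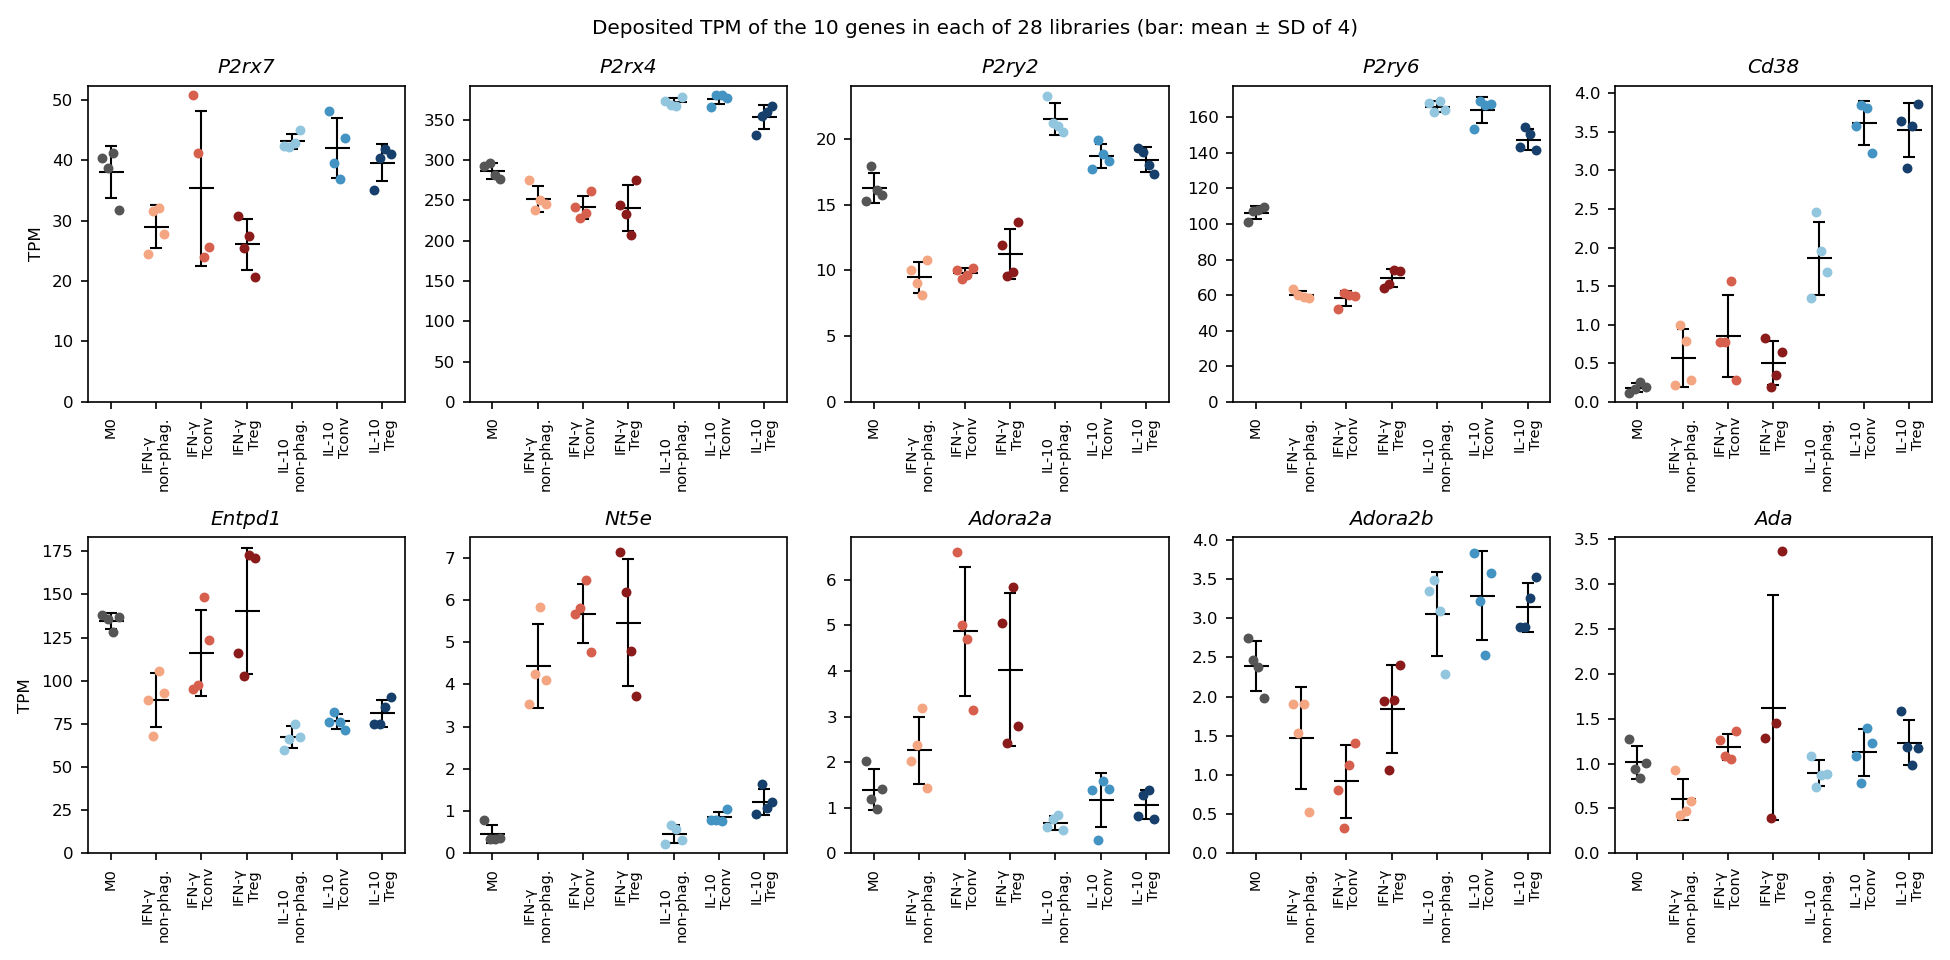
Deposited TPM (linear axis from 0) of the 10 genes in each library, with 4 points per group and the group mean ± SD in black. P2ry6 lies at 52.1 to 74.1 TPM in the IFN-γ libraries, 101 to 109 TPM in M0 and 141 to 169 TPM in the IL-10 libraries.

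Non-phagocytic macrophages were first set against M0. With IL-10, the receptors P2rx4, P2ry2 and P2ry6 and the NAD enzyme Cd38 rose, and Entpd1 and Adora2a fell, 6 of 10 genes in all, where 26.6% of the 13631 tested genes were called (13.7% higher and 12.9% lower). With IFN-γ, Nt5e and Adora2a rose and P2ry2, P2ry6 and Entpd1 fell, 5 of 10 genes, close to the 53.1% of all tested genes called in that comparison (26.4% higher and 26.7% lower). The 2 comparisons share the M0 libraries. Cd38, at 0.12 to 0.26 TPM in M0, passed the filter only through its IL-10 libraries. Its calls for IL-10 against M0 or IFN-γ are therefore not independent of the filter. Calls are at an adjusted p under 0.05 from limma with Benjamini-Hochberg adjustment over all tested genes, on log2(scaled TPM + 1). On that scale the change of genes near 1 TPM is understated. The median difference over the 10 genes was 0.20 for IL-10 (all genes 0.003) and -0.17 for IFN-γ (all genes -0.018).

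Set directly against IL-10, IFN-γ non-phagocytic cells had 3 of the genes higher (Entpd1, Nt5e, Adora2a) and 5 lower (P2rx7, P2rx4, P2ry2, P2ry6, Cd38), with 51.4% of all genes called (25.5% higher and 25.8% lower). The Treg-phagocytic groups gave the same 8 genes in the same directions (38.8% of all genes called, 16.6% higher and 22.2% lower). The Tconv-phagocytic groups also gave 8, with Adora2b lower in place of P2rx7 (52.5% of all genes called, 26.1% higher and 26.4% lower). Without the IL-10 Treg-phagocytic library Ax647-2, 5 rather than 8 were called between the Treg-phagocytic groups. The calls of P2rx7 and P2rx4 there were lost without IL-10 Treg-phagocytic Ax647-2, BV421-1 or BV421-2, and that of P2ry2 without Ax647-1 or Ax647-2 (adjusted p = 0.0505 to 0.0664, limma). Those of P2rx7 and P2rx4 were also lost with median-of-ratios scaling (0.0632 and 0.0526) and without the filter (0.0569 and 0.0657), and that of P2rx7 with group variance weights (0.0912).

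**Figure D2:**
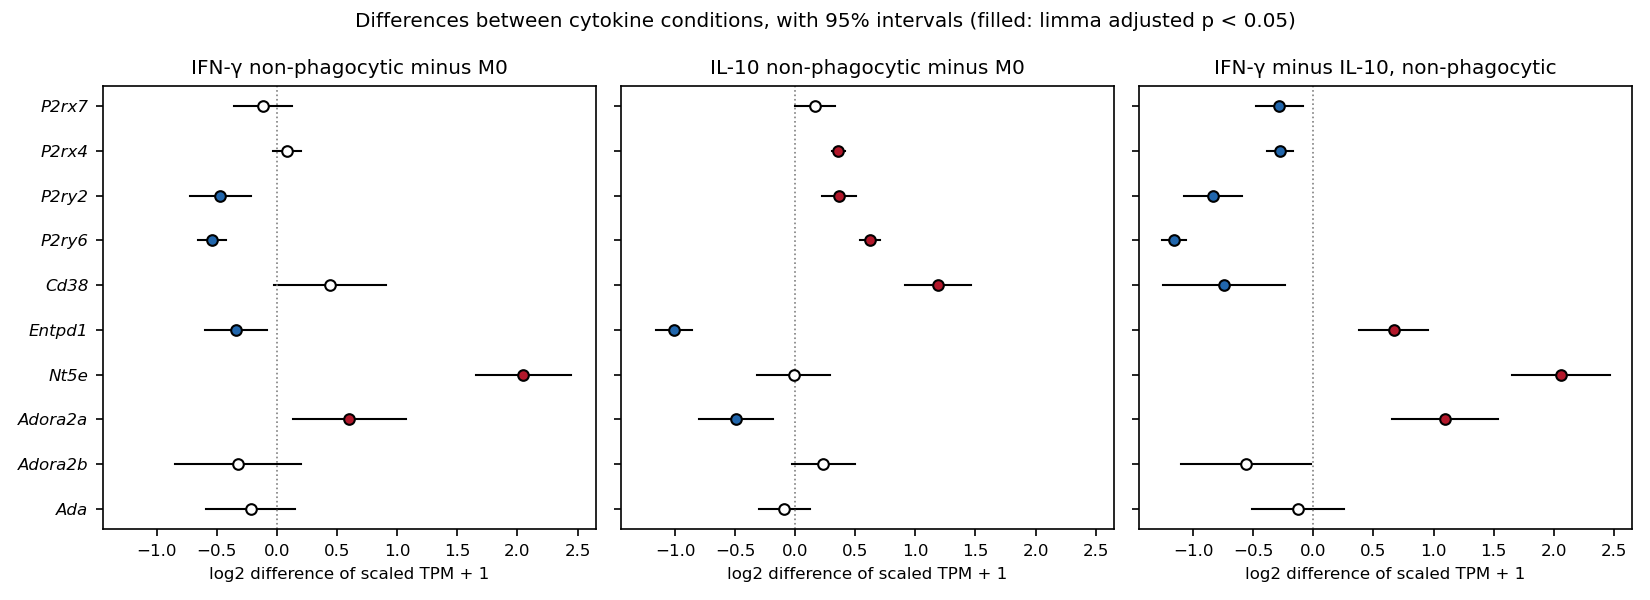
Difference of log2(scaled TPM + 1) for each gene between cytokine conditions, with 95% intervals and filled points for an adjusted p under 0.05 (limma). P2ry6 differs by 0.62 for IL-10 minus M0, -0.54 for IFN-γ minus M0 and -1.16 for IFN-γ minus IL-10.

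P2rx4, a calcium-permeable channel opened by ATP that sits largely in lysosomal membranes of macrophages, stood at 293, 296, 281 and 276 TPM in M0. It read 374, 368, 368 and 379 TPM in IL-10 non-phagocytic libraries and 275, 238, 251 and 246 TPM in IFN-γ non-phagocytic libraries. All IL-10 values lay above, and all IFN-γ values below, those of M0. The IL-10 rise was 0.36 (SE 0.0244) on the log2 scale, with a limma adjusted p of 1.08e-05. The IFN-γ difference depended on the scaling between libraries: it was 0.09 (adjusted p = 0.187, limma) with scaling, and -0.18 (adjusted p = 0.0109, limma) on the deposited TPM without it. Scaling shifts this comparison because the log2 factors of IFN-γ minus M0 libraries were -0.27 apart, and differences are therefore relative to the bulk of tested genes.

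P2rx7, the high-threshold ATP channel that triggers potassium efflux and inflammasome activation, was called in neither comparison with M0. Its values were 40.3, 38.8, 41.2 and 31.8 TPM in M0, 42.4, 42.2, 42.9 and 45.0 TPM in IL-10 non-phagocytic libraries and 24.4, 31.6, 32.1 and 27.8 TPM in IFN-γ non-phagocytic libraries. The IL-10 values all lay above M0, but the difference of 0.17 had an adjusted p of 0.134 (limma), and that of IFN-γ from M0 was -0.12 with an adjusted p of 0.386 (limma). Without scaling the latter was called (adjusted p = 0.0169, limma). Between IFN-γ and IL-10 the fall was -0.28 (SE 0.0863, adjusted p = 0.0218, limma). That call was lost without IL-10 replicate 3 or replicate 4 (adjusted p = 0.0535 and 0.0636, limma) and in a model of all 28 libraries (0.125). The neighbouring channel genes thus gave different calls against M0 with IL-10 but not with IFN-γ, and the difference between the genes was not tested.

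P2ry2, a receptor for ATP and UTP that directs phagocytes towards dying cells, was 15.3, 17.9, 16.1 and 15.8 TPM in M0. IL-10 non-phagocytic libraries held 23.3, 21.2, 21.0 and 20.6 TPM, and IFN-γ non-phagocytic libraries 10.1, 9.04, 8.10 and 10.8 TPM. The 3 groups did not overlap, with IL-10 highest and IFN-γ lowest. The limma differences from M0 were 0.365 (SE 0.0612, adjusted p = 0.0025) for IL-10 and -0.47 (SE 0.111, adjusted p = 0.00636) for IFN-γ.

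P2ry6, the UDP receptor tied to phagocytosis and chemokine release, followed the same order at higher levels. It measured 101, 107, 108 and 109 TPM in M0, 168, 163, 169 and 164 TPM in IL-10 non-phagocytic libraries and 63.3, 60.02, 59.2 and 58.5 TPM in IFN-γ non-phagocytic libraries. The groups were again apart. Its differences from M0 were 0.62 (SE 0.0346, adjusted p = 3.07e-06, limma) with IL-10 and -0.54 (SE 0.0507, adjusted p = 3.26e-05, limma) with IFN-γ. In deposited TPM, the IFN-γ mean was 0.363 times the IL-10 mean (adjusted p = 1.08e-07, limma). P2ry6 overlaps Gm44545 on the other strand, and the strand setting of the counting is not given in the sources used here.

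Entpd1 was the enzyme with the highest level and fell under both cytokines. It was 138, 136, 128 and 137 TPM in M0, 60.02, 66.5, 75.2 and 67.5 TPM in IL-10 non-phagocytic libraries and 89.0, 68.0, 106 and 92.9 TPM in IFN-γ non-phagocytic libraries. Every cytokine-treated non-phagocytic value was below every M0 value. IFN-γ and IL-10 values overlapped, and with scaling IFN-γ was above IL-10 by 0.67 (SE 0.126, adjusted p = 0.00193, limma). Over the alternatives that difference was 0.38 to 0.79, and it stayed called. The IL-10 fall was -1.01 (SE 0.0647, adjusted p = 7.82e-06, limma), a mean of 0.5 times that of M0. The IFN-γ fall was smaller, -0.34 (SE 0.114, adjusted p = 0.0319, limma), and 7 of 17 alternatives took it past the threshold: without M0 replicate 1, 2, 3 or 4 or IFN-γ replicate 1, without the filter, and in a model of all libraries (adjusted p = 0.052 to 0.0978, limma).

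Cd38, which breaks down NAD and makes calcium-mobilizing products, was close to the detection limit in M0, at 0.12, 0.17, 0.26 and 0.19 TPM. IL-10 non-phagocytic libraries held 1.34, 2.46, 1.96 and 1.68 TPM, a mean 10.1 times that of M0. All 4 were above all M0 libraries, with a difference of 1.19 (SE 0.12, adjusted p = 0.000134, limma). IFN-γ non-phagocytic libraries held 0.22, 0.99, 0.79 and 0.28 TPM, a few reads each at their depth, and their difference from M0 of 0.44 had an adjusted p of 0.099 (limma). Cd38 was lower with IFN-γ than with IL-10 by -0.74 (adjusted p = 0.0211, limma), a call lost without IL-10 replicate 2 or 3 (0.0624 and 0.0538). The gene overlaps the antisense Gm16015 and the intronic Gm16014, whose reads may not be separable from its own.

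Nt5e behaved unlike the other enzymes: it was low in M0 and with IL-10 and highest with IFN-γ. Its values were 0.79, 0.33, 0.35 and 0.36 TPM in M0, 0.23, 0.68, 0.57 and 0.32 TPM in IL-10 non-phagocytic libraries and 3.54, 4.24, 5.84 and 4.10 TPM in IFN-γ non-phagocytic libraries. The IFN-γ group was wholly above both others, with a mean 9.68 times that of M0 and a difference of 2.05 (SE 0.174, adjusted p = 1.78e-05, limma). For IL-10 the difference was -0.01 (adjusted p = 0.968, limma), with a 95% interval of -0.31 to 0.29.

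T cell RNA moved with Nt5e. T cells themselves carry CD73, and of 19 T cell markers 18 were higher in IFN-γ non-phagocytic libraries than in M0 and none was lower. Their sum was 573 to 978 TPM against 65.8 to 178 TPM, and no marker was at 0 in every library of a group. B lineage markers moved likewise (79.7 to 146 TPM against 15.6 to 30.9 TPM), and stromal markers moved the other way (11.8 to 14.4 TPM against 140 to 160 TPM). Nt5e was 0.203% to 0.833% of the T cell sum over all 28 libraries, a narrower range than that of Nt5e itself. Across the 12 IFN-γ libraries its log2 level correlated with that of the sum with a Pearson r of 0.801 (Spearman rho 0.797, and r of 0.618 without the 2 libraries farthest from the median sum), and across the 12 IL-10 libraries with an r of 0.865 (rho 0.93, and 0.929). Over the IL-10 libraries the r was also 0.727 for Entpd1 and 0.724 for Cd38, against 0.139 and 0.487 over the IFN-γ libraries. Points within a cytokine share uptake groups and preparation. The part of T cell RNA in the Nt5e result was not tested, and in bulk RNA fewer cells of a type cannot be told apart from less RNA per cell.

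**Figure D3:**
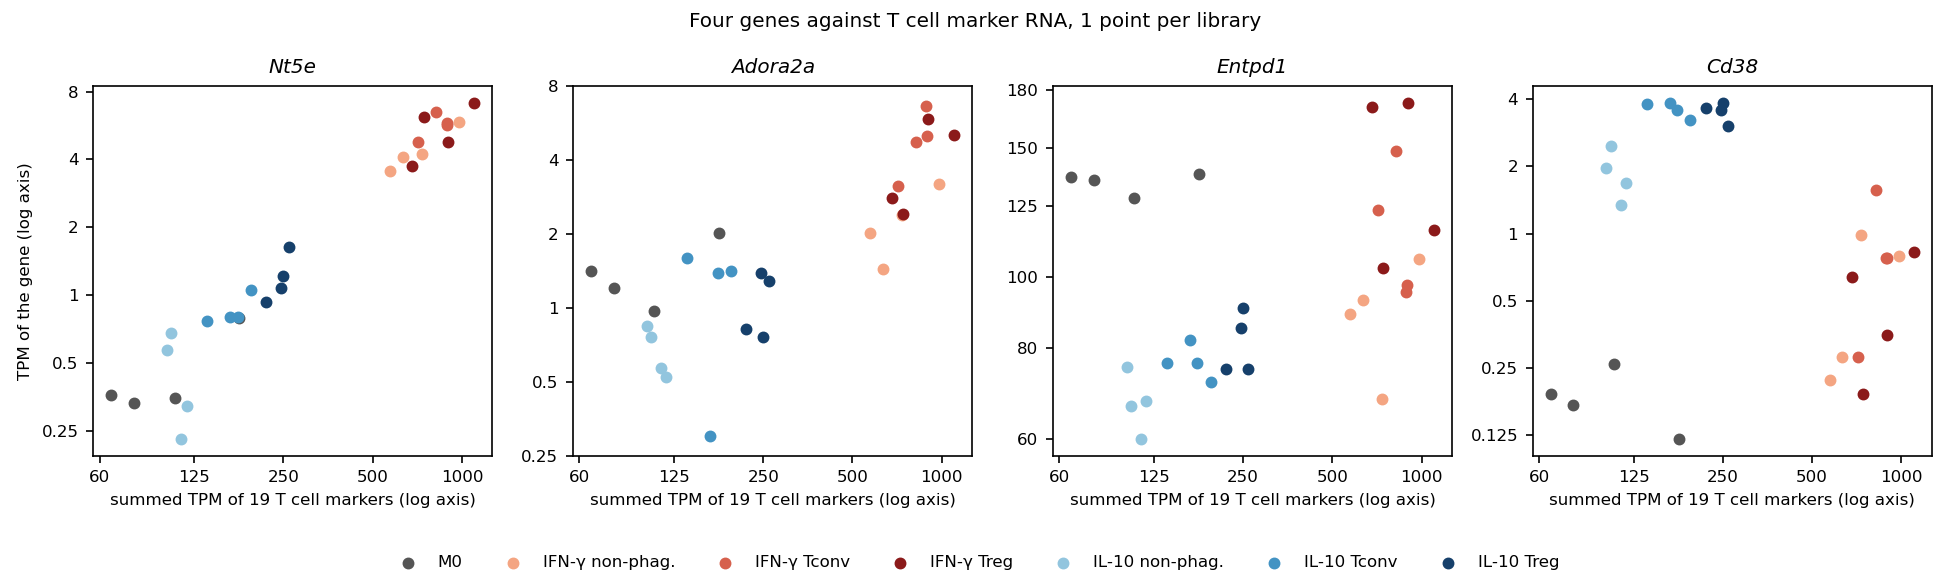
TPM of 4 genes against the summed TPM of 19 T cell markers, both on log axes, with 1 point per library coloured by group. Nt5e keeps to a band of 0.203% to 0.833% of the T cell sum over all groups, and Cd38 lies at 0.19 to 1.57 TPM in the IFN-γ libraries, whose sums are the 573 to 1101 TPM at the right.

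The adenosine receptor Adora2a, which raises cyclic AMP, was 2.02, 1.2, 0.97 and 1.41 TPM in M0 and went in opposite directions. It was 0.57, 0.76, 0.84 and 0.52 TPM in IL-10 non-phagocytic libraries, all below M0, and 2.02, 2.38, 3.19 and 1.44 TPM in IFN-γ non-phagocytic libraries, which overlapped M0. The IL-10 fall was -0.49 (SE 0.134, adjusted p = 0.0266, limma) and the IFN-γ rise 0.60 (SE 0.207, adjusted p = 0.0362, limma). Neither call was firm. The IL-10 call was lost without M0 replicate 4 or IL-10 replicate 1 or 4, without the filter and in the model of all libraries (adjusted p = 0.064 to 0.232, limma), and the IFN-γ call under 9 of 17 alternatives, among them leaving out M0 replicate 2, 3 or 4 or IFN-γ replicate 1, 2 or 3 (0.0511 to 0.1). The direct difference, IFN-γ above IL-10 by 1.09 (SE 0.194, adjusted p = 0.00137, limma), was called without overlap. Adora2a is also a receptor of T cells, and its r with the T cell sum was 0.769 over the IFN-γ libraries and 0.411 over the IL-10 libraries; that part was not tested.

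Adora2b, the low-affinity receptor, ran the other way at 2.74, 2.47, 2.37 and 1.98 TPM in M0, 3.34, 3.48, 3.09 and 2.29 TPM with IL-10 and 1.90, 1.54, 1.91 and 0.53 TPM with IFN-γ, all non-phagocytic. IFN-γ values lay below M0, but neither difference from M0 was called (0.23, adjusted p = 0.18, and -0.33, adjusted p = 0.264, limma). Among Tconv-phagocytic cells, IFN-γ libraries held 1.13, 1.41, 0.81 and 0.32 TPM and IL-10 libraries 2.53, 3.57, 3.83 and 3.22 TPM, a difference of -1.10 (SE 0.215, adjusted p = 0.00227, limma).

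Ada was near 1 TPM everywhere and was called in none of the 11 comparisons of groups. Group means ran from 0.603 TPM in IFN-γ non-phagocytic to 1.63 TPM in IFN-γ Treg-phagocytic libraries. The latter held 1.29, 0.39, 1.45 and 3.37 TPM, and the highest of them, BV421-2, was the highest Ada value of all libraries. Ranges of neighbouring groups in the order of means overlapped throughout.

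Few of the genes were called with uptake. Under IL-10, Treg-phagocytic macrophages had 3 genes higher than non-phagocytic ones (Cd38, Entpd1, Nt5e; 11.3% of all genes called, 6.82% higher), and Tconv-phagocytic macrophages had 2 higher (Cd38, P2rx4; 6.09% called, 4.31% higher). In deposited TPM, P2rx7, P2rx4, P2ry2 and P2ry6 of IL-10 Treg-phagocytic libraries lay below all non-phagocytic values. P2ry6, for one, was 141 to 154 against 163 to 169 TPM. With scaling these 4 differences were -0.04, 0.005, -0.13 and -0.09, and none was called. Without scaling P2ry2 and P2ry6 were called lower (adjusted p = 0.0402 and 0.0105, limma). The share of all genes apart in this way was not computed. Under IFN-γ no gene of the 10 was called for Treg uptake (7.73% of all genes called), Tconv uptake (0.00734%, 1 gene) or Treg against Tconv uptake (11.5%), and none for Treg against Tconv uptake under IL-10 (1.38%). Each of those 4 comparisons had 2 of the genes at an unadjusted limma p under 0.05. The share of all genes at that unadjusted threshold was not computed, so these counts have no background to be read against. A missing call does not show equal levels: spreads under IFN-γ were wide.

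Cd38 rose with uptake of either T cell under IL-10. It was 3.81, 3.22, 3.58 and 3.85 TPM in Tconv-phagocytic and 3.64, 3.03, 3.57 and 3.86 TPM in Treg-phagocytic libraries, all above the 1.34 to 2.46 TPM of non-phagocytic cells. The means were 1.94 and 1.9 times as high (0.75, SE 0.122, adjusted p = 0.0114, and 0.71, SE 0.129, adjusted p = 0.0101, limma). For Tconv uptake the call was lost in the model of all libraries (adjusted p = 0.0507, limma). Treg and Tconv uptake differed by -0.03 with a 95% interval of -0.24 to 0.17. T cell markers also rose with both, 9 of 19 for Tconv and 19 of 19 for Treg uptake. Their sums were 101 to 118 TPM in non-phagocytic, 138 to 194 TPM in Tconv-phagocytic and 219 to 260 TPM in Treg-phagocytic libraries. Over the 12 IL-10 libraries Cd38 had an r of 0.724 with the sum (rho 0.51, and r of 0.675 without the 2 libraries farthest from the median sum). The IFN-γ groups, with sums of 573 to 1101 TPM, held 0.19 to 1.57 TPM of Cd38. The part of T cell RNA in the Cd38 result was not tested.

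Entpd1 under IL-10 was 74.7, 74.7, 85.0 and 90.6 TPM in Treg-phagocytic libraries, overlapping the 60.02 to 75.2 TPM of non-phagocytic ones, a difference of 0.35 (SE 0.0844, adjusted p = 0.0343, limma). That call was lost under 8 of 18 alternatives, among them no scaling, no filter, and leaving out non-phagocytic replicate 1, 2 or 4 or Treg-phagocytic BV421-1 or BV421-2 (adjusted p = 0.0647 to 0.307, limma). Nt5e was 0.93, 1.64, 1.07 and 1.22 TPM against 0.23 to 0.68 TPM, apart from each other, with a difference of 0.62 (SE 0.136, adjusted p = 0.0229, limma). It was lost without the filter and without non-phagocytic replicate 1 or 4 or Treg-phagocytic BV421-2 (0.0566 to 0.0657). Without non-phagocytic replicate 1 or 4, or without Treg-phagocytic BV421-2, 1 of the 3 genes was still called. T cell markers rose in the same comparison, as given for Cd38, and their part in the Entpd1 and Nt5e results was not tested.

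P2rx4 in IL-10 Tconv-phagocytic libraries was 381, 378, 367 and 381 TPM, overlapping the 368 to 379 TPM of non-phagocytic ones. Its call (0.10, SE 0.0214, adjusted p = 0.0329, limma) rested on the scaling: without it the adjusted p was 0.64. It was lost under 10 of 18 alternatives, leaving out non-phagocytic replicate 1, 2 or 3 or Tconv-phagocytic BV421-1, BV421-2 or Ax647-2 among them (0.0764 to 0.0887).

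**Figure D4:**
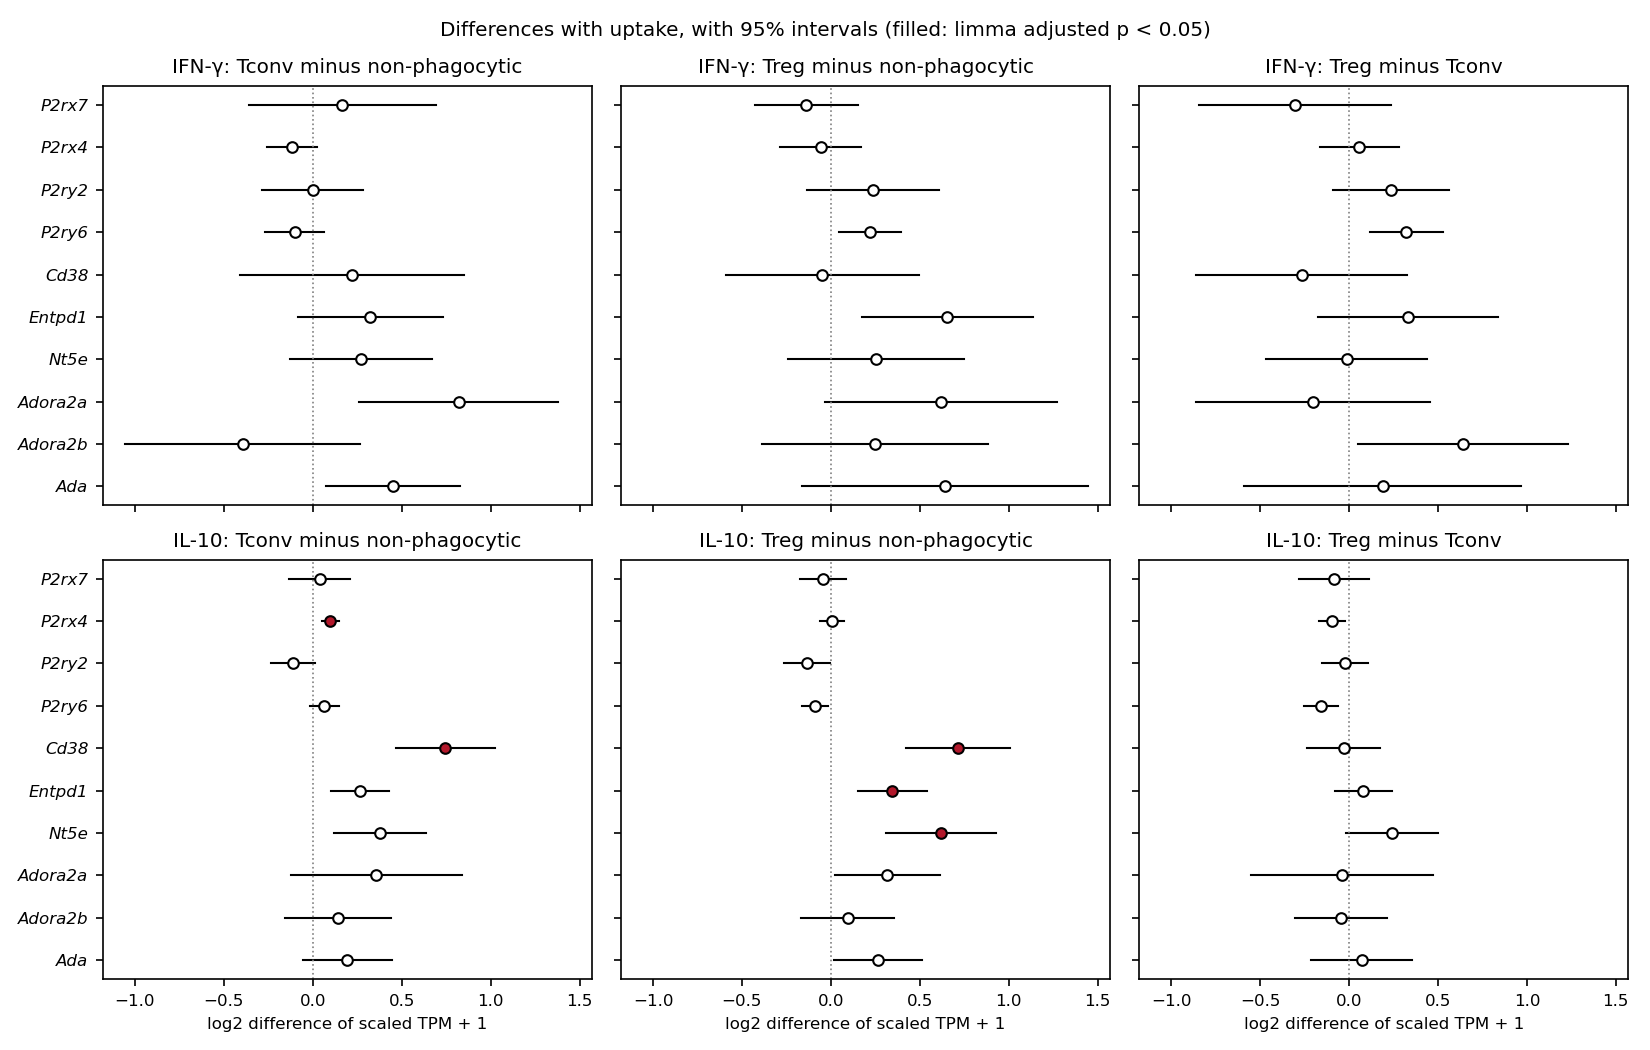
Difference of log2(scaled TPM + 1) with uptake for each gene, with IFN-γ in the upper row and IL-10 in the lower, 95% intervals, and filled points for an adjusted p under 0.05 (limma). Cd38 lies at 0.75 and 0.71 for Tconv and Treg uptake under IL-10, and intervals under IFN-γ are wider.

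Under IFN-γ, Adora2a, Entpd1 and Ada had mean levels above those of non-phagocytic cells with uptake, and none was called. Adora2a was 4.71, 3.14, 6.61 and 5.01 TPM in Tconv-phagocytic and 5.04, 2.42, 5.85 and 2.79 TPM in Treg-phagocytic libraries, overlapping the 1.44 to 3.19 TPM of non-phagocytic cells. Its mean was 2.16 times as high with Tconv uptake (0.82, SE 0.244, adjusted p = 0.631, limma), with a 95% interval of 0.26 to 1.38. Entpd1 was 103 to 173 TPM with Treg uptake and 68.0 to 106 TPM without, a difference of 0.65 (SE 0.208, adjusted p = 0.109, limma) that was called in the model of all libraries (0.00228). Ada had a mean 2.7 times that of non-phagocytic cells with Treg uptake, overlapping them (0.64, adjusted p = 0.34, limma). With Tconv uptake its mean was 1.97 times as high without overlap (0.45, adjusted p = 0.698, limma). Nt5e was 4.76 to 6.46 TPM with Tconv and 3.72 to 7.13 TPM with Treg uptake, overlapping the 3.54 to 5.84 TPM of non-phagocytic cells.

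Of the 10 genes, P2ry6 was the one called when Treg uptake was compared between the cytokines. Under IFN-γ it was 64.1, 66.3, 74.1 and 73.8 TPM in Treg-phagocytic and 59.9, 59.5, 52.1 and 61.5 TPM in Tconv-phagocytic libraries, with no overlap. Under IL-10 it was 143, 154, 151 and 141 TPM in Treg-phagocytic and 167, 168, 153 and 169 TPM in Tconv-phagocytic libraries, which overlapped. The Treg minus Tconv difference was 0.32 (adjusted p = 0.0539, limma) under IFN-γ and -0.16 (adjusted p = 0.141, limma) under IL-10. The test of the difference between them gave 0.48 (SE 0.0998, adjusted p = 0.00452, limma; 13.1% of all genes called, 4.14% higher), and it was called in every alternative run. Other lists differed between the same groups. Stromal markers were lower in 9 of 9 tested with Treg than with Tconv uptake under IL-10 (sums of 33.7 to 37.0 against 175 to 190 TPM). P2ry6 had an r of 0.798 with that sum over the 12 IL-10 libraries and of -0.432 over the 12 IFN-γ libraries. Under IFN-γ the IFN-γ response genes summed to 209 to 298 TPM with Treg and 522 to 752 TPM with Tconv uptake. Their part in the P2ry6 result was not tested. The same test for Treg uptake against non-phagocytic cells gave 0.31 (SE 0.0842, adjusted p = 0.0282, limma; 9.53% called, 1.89% higher). It was lost without IFN-γ Treg-phagocytic BV421-1, IL-10 non-phagocytic replicate 1, 3 or 4, or IL-10 Treg-phagocytic Ax647-1 or BV421-2 (adjusted p = 0.0513 to 0.0673, limma). For Tconv uptake no gene of the 10 was called (1.71% of all genes called). Of the 10, 1 had an unadjusted limma p under 0.05, and the share of all genes there was not computed.

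Within the IFN-γ phagocytic groups, some genes had both BV421 values on one side of both Ax647 values, by the dye of the titles. Entpd1 and Adora2b did so in both groups, P2rx7 and Adora2a in the Tconv-phagocytic group, and P2ry6, Nt5e and Ada in the Treg-phagocytic group. Entpd1 was 148 and 123 TPM in BV421 and 95.3 and 97.4 TPM in Ax647 Tconv-phagocytic libraries, and 173 and 171 TPM in BV421 and 116 and 103 TPM in Ax647 Treg-phagocytic libraries. P2rx7 was 24.0 and 25.6 TPM in BV421 and 50.8 and 41.1 TPM in Ax647 Tconv-phagocytic libraries, but 20.6 to 27.5 and 25.4 to 30.7 TPM in Treg-phagocytic ones. Adora2b was 1.13 to 1.41 TPM in BV421 and 0.32 to 0.81 TPM in Ax647 Tconv-phagocytic libraries, and 1.96 to 2.4 and 1.06 to 1.94 TPM in Treg-phagocytic ones. Ada was 1.45 to 3.37 TPM in BV421 and 0.39 to 1.29 TPM in Ax647 Treg-phagocytic libraries, and Nt5e was the other way round, at 3.72 to 4.8 and 6.19 to 7.13 TPM. Under IL-10 such separations were also seen. Entpd1 and Ada had them in both groups, Adora2a in the Tconv-phagocytic group, and P2rx7, P2rx4, P2ry2 and Adora2b in the Treg-phagocytic group. Entpd1 was 71.7 to 76.1 TPM in BV421 and 76.2 to 81.8 TPM in Ax647 IL-10 Tconv-phagocytic libraries. It ran the other way in IL-10 Treg-phagocytic libraries, at 85.0 to 90.6 TPM in BV421 and 74.7 TPM in Ax647. Each such set holds 2 libraries, so values can separate by chance. The share of all genes that separate in this way was not computed. With the title dye as a covariate, Treg against Tconv uptake under IFN-γ was called for Entpd1 (adjusted p = 0.0455, limma) and P2ry6 (0.0407). With the dye of the library names as the covariate, neither was called. The dyes disagree between labels for Treg-phagocytic libraries, and the part of the dye was not tested.

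Further genes of the pathway were taken from 7 lists, with 73 genes in the files and 48 tested. Against M0, 9 rose and 12 fell with IL-10, and 9 rose and 19 fell with IFN-γ, all in non-phagocytic cells, where 26.6% and 53.1% of all tested genes were called. Between the cytokines 7 were higher and 18 lower with IFN-γ, where 51.4% of all genes were called. For the counts of the lists that follow, the shares of all genes were 13.7% higher and 12.9% lower with IL-10 and 26.4% higher and 26.7% lower with IFN-γ. The median difference over the 48 was 0.012 for IL-10 and -0.27 for IFN-γ against M0, beside 0.003 and -0.018 over all genes.

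Among 9 tested surface enzymes, 4 rose and none fell with IL-10. Entpd3, another ATP-degrading ectoenzyme, went from a mean of 0.0525 TPM in M0 to 5.14 ± 0.409 TPM (SD, n = 4) with IL-10 (2.43, adjusted p = 1.83e-07, limma), and stood at 5.51 and 5.41 TPM in the Tconv- and Treg-phagocytic groups. With IFN-γ it was listed at 0 in all 4 Treg-phagocytic libraries and at a mean of 0.115 TPM in non-phagocytic ones. So while Entpd1 fell with IL-10, Entpd3 rose, at a lower level. Entpd3 passed the filter only through its IL-10 libraries, with at most 0.15 TPM in M0 and 0.46 TPM under IFN-γ. Its rise, and its place among the enzymes that rose, are therefore not independent of the filter. Enpp1, which cleaves ATP to AMP, went from 5.99 to 12.5 TPM with IL-10 (0.92, adjusted p = 5.68e-05, limma). Bst1 (CD157), the neighbour of Cd38 and a related NAD enzyme, was 13.8 TPM in M0, 45.7 TPM with IL-10 and 31.3 TPM with IFN-γ (1.64 and 1.37, adjusted p = 3.46e-06 and 8.43e-05, limma).

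Bst1 also differed with uptake. It was 15.9 ± 2.78 TPM in IFN-γ Treg-phagocytic, 29.4 ± 5.09 TPM in IFN-γ Tconv-phagocytic and 31.3 ± 6.39 TPM in IFN-γ non-phagocytic libraries (SD, n = 4 each). Treg-phagocytic libraries lay below both others without overlap (-0.78 and -0.91, adjusted p = 0.019 and 0.0202, limma). Under IL-10, Bst1 was also lower with Treg uptake than in non-phagocytic cells, at 34.7 against 45.7 TPM without overlap (-0.31, adjusted p = 0.00726, limma). The Treg minus non-phagocytic difference was not called between the cytokines. The Treg minus Tconv difference under IFN-γ minus that under IL-10 was -0.64 (adjusted p = 0.0198, limma). Among the IFN-γ groups, IFN-γ response genes were also lowest in Treg-phagocytic libraries, at 209 to 298 TPM. Their part was not tested.

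Art2b, which attaches ADP-ribose from NAD to surface proteins such as P2X7 on T cells, was 0.7 TPM in M0 and 6.4 ± 3.57 TPM (SD, n = 4) with IFN-γ (2.22, adjusted p = 0.000992, limma). Its near-identical copy makes the assignment of reads uncertain, and T cell markers rose in the same comparison. Of the ATP release genes, 3 of 5 fell with IFN-γ, among them the volume-regulated channel subunit Lrrc8a (14.3 to 5.10 TPM, -1.09, adjusted p = 2.19e-05, limma) and Calhm2 (15.9 to 6.02 TPM, -1.07, adjusted p = 0.00192, limma). The ATP channel Panx1 fell with IL-10 from 31.7 to 15.1 TPM (-1.03, adjusted p = 0.00031, limma) and rose with Treg uptake under IL-10 to 21.6 TPM (0.57, adjusted p = 0.00522, limma). Lrrc8a rose with Treg uptake under IFN-γ from 5.10 to 8.67 TPM (0.68, adjusted p = 0.0413, limma), and this differed from IL-10 by 0.86 (adjusted p = 0.00273, limma). Nampt, which makes NAD from nicotinamide, differed the other way: the Treg minus non-phagocytic difference under IFN-γ, 41.3 against 49.5 TPM, was -0.41 relative to IL-10 (adjusted p = 0.0384, limma).

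Of 13 tested genes of adenosine uptake and use, 1 rose and 5 fell with IL-10 and 2 rose and 5 fell with IFN-γ. Ampd3, which deaminates AMP and so diverts it from adenosine, was 41.4 TPM in M0, 23.5 TPM with IL-10 and 9.70 TPM with IFN-γ (-0.80 and -1.82, adjusted p = 7.56e-06 and 0.000419, limma). Nt5c3, a pyrimidine nucleotidase placed on this list, went from 11.96 to 23.4 TPM with IFN-γ (1.18, adjusted p = 4.14e-05, limma). Of 6 other P2 receptors tested, 3 fell and none rose with IL-10, and 2 rose and 2 fell with IFN-γ. P2ry14, the UDP-glucose receptor, was 17.8 TPM with IFN-γ and 9.16 TPM with IL-10 (1.14, adjusted p = 2e-04, limma), and the lipid receptor relative P2ry10b fell from 7.22 to 4.21 TPM with IL-10 (-0.66, adjusted p = 7e-04, limma).

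**Figure D5:**
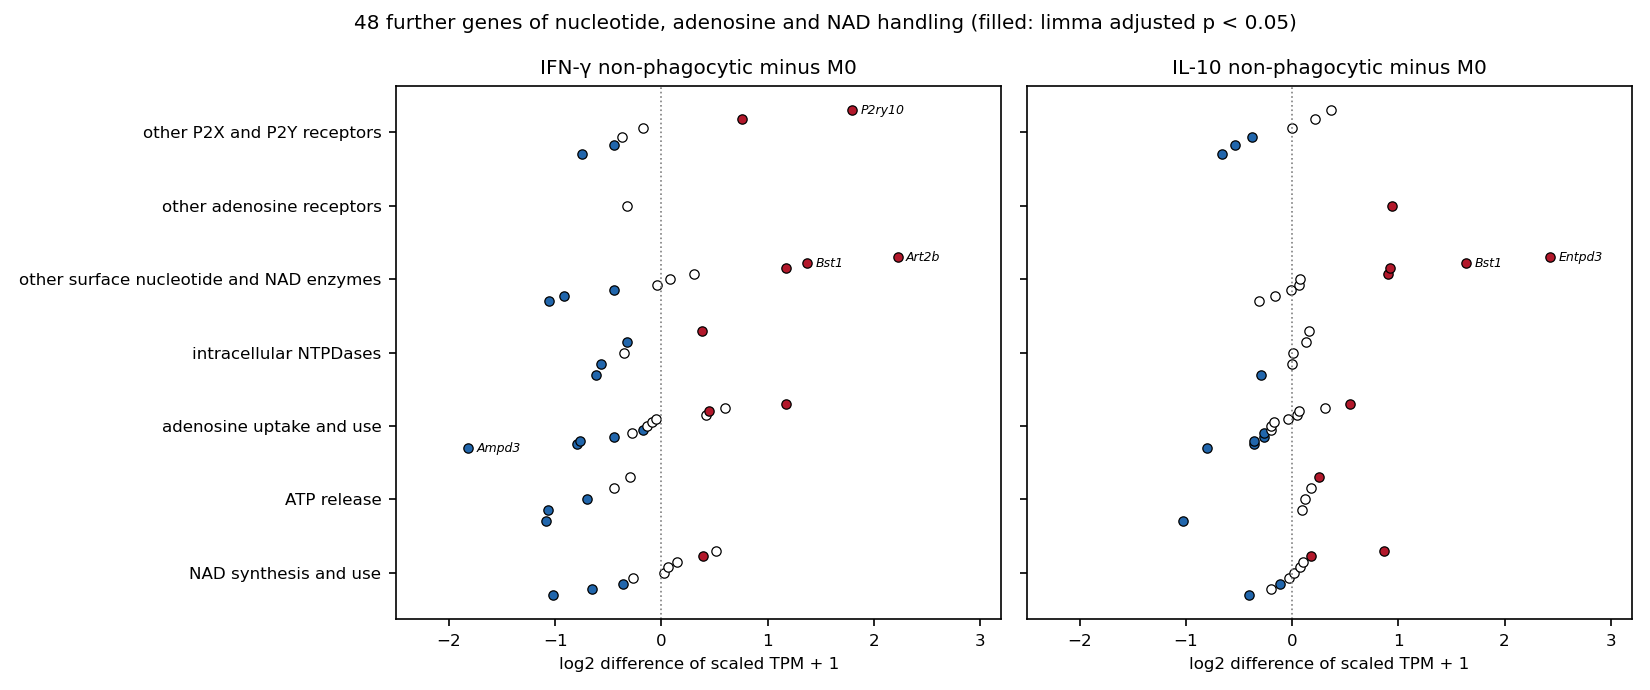
Differences from M0 of log2(scaled TPM + 1) for 48 further pathway genes in 7 lists, with 1 point per gene and filled points for an adjusted p under 0.05 (limma). Entpd3 and Bst1 lie farthest to the right for IL-10 and Art2b for IFN-γ, and Ampd3 lies farthest to the left for IFN-γ.

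Over the 28 libraries, the genes with the pattern closest to each receptor or enzyme were taken among 8730 genes by Pearson correlation of log2 levels, as a description of libraries that share cytokine groups. For P2ry6 they were Cd5l (r = 0.986) and Cxcr4 (0.985), for P2ry2 Cox6a2 (0.964) and Kcnk13 (0.958), and for P2rx4 Litaf (0.921) and Phyhd1 (0.911). Nt5e was closest to Lat (0.982), which is a gene of the T cell marker list, and to Kbtbd11 (0.982). Cd38 was closest to Fcgrt (0.937) and Tmem176a (0.928), Entpd1 to Creg1 (0.886) and Fth1 (0.874), Adora2a to Dusp2 (0.912) and Il27ra (0.908), and Adora2b to Spryd3 (0.876) and Mmp27 (0.861). P2rx7 (Lrrc57, 0.715, and Zbed4, 0.707) and Ada (Cox5b, 0.713, and Sra1, 0.648) had no such close match. Among the 10 genes themselves, the closest pairs were P2ry2 with P2ry6 (0.935) and Nt5e with Adora2a (0.876).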

How the data were processed

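Poly(A) RNA of 28 libraries was extracted (RNAiso PLUS) and made into libraries (NEBNext Ultra II Directional), as the labels' protocols state. STAR, RSEM and the build mm10 are named in the submitters' processing notes, without versions; the annotation release is not given in the sources used here. The deposited values are the authors' TPM per Ensembl gene, per the file headers, with no read counts. Of 55487 gene IDs, 55141 matched a symbol and 346 did not. No 2 libraries were identical among the 378 pairs compared.

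Members, gene lists and tests were chosen with earlier results of these data known. A gene was tested when 4 or more libraries reached 1 TPM (13631 genes). TPM was divided by a trimmed-mean factor per library (30% of ratios and 5% of levels trimmed at each end, from genes passing the filter), and limma 3.58.1 in R 4.3.3 (mean-variance trend) was fitted to log2(value + 1) for only the groups compared, because the spread was wider under IFN-γ. Calls were at a Benjamini-Hochberg adjusted p under 0.05; intervals are 95%. The script was tested on simulated data. Depth was read from TPM steps of genes with 1 transcript of 500 to 2000 nt, where 87.9% to 91.9% of low values lay within 0.15 reads of a whole number; no total count is known.

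All 10 members are named in each comparison. Of 75 further pathway genes, 73 were in the files (Acp3 and Art2a were not matched), and per comparison the top 3 called genes in each direction were eligible, at 5 TPM or more in the higher group; the report gives those of the main comparisons. Likeness used genes with a mean of at least 5 TPM. The dye and number of titles, and the file numbers, did not pair libraries: correlations of same-numbered deviations were -0.067 to 0.082. Alternatives varied the pseudocount, scaling, filter, model, dye covariate, replicate block and each library. Scaling factors from every gene above 0 and the dye of the library names were added after seeing the data. A search of the promoter windows for a sequence motif is not reported here.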

Additional observations from a re-analysis of the deposited data

Results flagged for a closer look

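Of 70 groups of 4 libraries (10 genes in 7 groups), 4 had a library far from the others, where chance gives about 1 in 20 groups. P2ry6 in IL-10 Tconv-phagocytic Ax647-1 was 153.23 TPM, with the others at 167 to 169 TPM. Nt5e in M0 replicate 1 was 0.79 TPM, with the others at 0.33 to 0.36 TPM; the T cell marker sum of that library, 178 TPM, was also the highest of M0. Nt5e in IL-10 Tconv-phagocytic BV421-2 was 1.05 TPM, with the others at 0.77 to 0.8 TPM. Adora2a in IL-10 Tconv-phagocytic Ax647-2 was 0.3 TPM, with the others at 1.39 to 1.59 TPM, and without it Adora2a was called higher than in non-phagocytic libraries (0.61, limma adjusted p = 0.0255).

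Of 30 differences between cytokines in the response to uptake, 2 were called, both for P2ry6: 0.478 for Treg minus Tconv uptake (adjusted p = 0.00452, limma) and 0.311 for Treg uptake minus non-phagocytic (adjusted p = 0.0282, limma).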

How the results depend on the processing

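Of 2698 values of the 10 genes under the alternatives, 2597 kept their direction and side of the threshold, 71 lost a call, 29 gained one and 1 reversed. The reversal was P2rx4 for IFN-γ non-phagocytic against M0, -0.185 without scaling (adjusted p = 0.0109, limma) against 0.09 with it; the cause was not tested.

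Counts of the 10 genes called moved as follows, and the causes were not tested. For IFN-γ Treg against Tconv uptake (0 called), 1 was called with median-of-ratios scaling, a filter of 5 TPM, group variance weights or factors from every gene above 0, and 2 in the model of all libraries or with the title dye as covariate. The dye of the library names as covariate left this count at 0. For IFN-γ Treg-phagocytic against non-phagocytic (0), the model of all libraries called 3 and variance weights 1. For IL-10 Treg against Tconv uptake (0), variance weights called 1. For IL-10 Tconv-phagocytic against non-phagocytic (2), 1 was called without scaling and 0 in the model of all libraries. Without the filter, IL-10 Treg-phagocytic against non-phagocytic had 1 (of 3) and IFN-γ non-phagocytic against M0 had 3 (of 5). The difference between cytokines in Treg uptake against non-phagocytic had 2 (of 1) at a pseudocount of 5.

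Leaving out each library in turn gave 0 to 1 for IFN-γ Treg against Tconv uptake (1 without Treg-phagocytic Ax647-1), 5 to 8 for IFN-γ against IL-10 Treg-phagocytic, 3 to 5 for IFN-γ non-phagocytic against M0 (3 without M0 replicate 2, 3 or 4), 1 to 2 for IL-10 Tconv-phagocytic and 1 to 3 for IL-10 Treg-phagocytic against non-phagocytic, and 0 to 1 for the difference between cytokines in Treg uptake against non-phagocytic.

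Library numbers did not pair the libraries. With the file-number replicate block, IL-10 Tconv-phagocytic against non-phagocytic had 0 calls (Cd38 adjusted p = 0.0764, P2rx4 0.103, limma) and IL-10 Treg-phagocytic against non-phagocytic had 2 (Cd38 0.058); 5 of 24 pairs correlated best with their own number. The block of title dye and number called 0 in both Treg against Tconv comparisons. Depth limits Cd38, Ada, Adora2a and Adora2b under IFN-γ, where a single read was worth up to 0.328 TPM on a 2000-nt RNA.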
